A study of Mus musculus with 37 samples.

Results

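The genes described here were 10 factors of the integrated stress response: the transcription factors Atf4, Atf5 and Ddit3, the phosphatase subunits Ppp1r15a and Ppp1r15b, the transcriptional regulator Ifrd1, and the eIF2 kinases Eif2ak1 (HRI), Eif2ak2 (PKR), Eif2ak3 (PERK) and Eif2ak4 (GCN2). They were chosen by name, and every open reading frame (ORF, the codons that run in 1 frame up to a stop codon) named in the list for one of these symbols was kept. This gave 16 ORFs of 22367, in 9 of the 10 genes, while the whole list held 10253 gene names. Ribosome footprints had been sequenced from dendritic cells grown from bone marrow of C57BL/6J mice aged 6-8 weeks, in 37 libraries. Cells received lipopolysaccharide (LPS, a bacterial cell wall component) at 100 ng/mL, at 8 time points from 0.5 to 12 h or as mixed times, a mock treatment over the same times, or nothing (naive). The elongation inhibitor cycloheximide was added to cells of 16 LPS, 8 mock and 2 naive libraries, and 8 LPS libraries and 1 naive library had no drug. Of the initiation-stage inhibitors, harringtonine and lactimidomycin each had 1 library, both pooled from several LPS times.

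The values came from 1 list of ORFs scored by the authors over all libraries pooled. No ORF had a value per library or a replicate, so the treatment and inhibitor groups could not be set against each other, no test was made, and the depth behind each ORF is unknown. The authors' score was a whole number from 500 to 991 in this list and is used only to rank ORFs inside it. Of markers of the labelled cell type, 16 of 17 dendritic cell genes had a listed ORF, Flt3 being the exception. Listed too were 5 of 6 macrophage and monocyte markers, 6 of 6 neutrophil markers, 3 of 3 fibroblast markers and 1 of 5 T or B cell markers. Presence in the list gives no level, so the part of each cell type in the footprints was not tested.

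In the integrated stress response, kinases that sense amino acid shortage, misfolded protein, double-stranded RNA or low heme phosphorylate the initiation factor eIF2, which lowers protein synthesis in general. Some mRNAs are known to be translated better in that state because short upstream ORFs in their leaders capture or delay scanning ribosomes, and Atf4, Atf5, Ddit3 and Ppp1r15a are textbook cases. PPP1R15A and PPP1R15B direct protein phosphatase 1 to eIF2 and so reverse the phosphorylation.

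RefSeq windows of GRCm38.p6 were given for 9 of the 10 genes, in 11 windows, and each holds 50 transcribed bases. The windows of Ifrd1 and Ddit3 are shown, a choice made after all windows were seen, because a listed Ifrd1 start falls inside its window and the Ddit3 window holds a pair of starts spaced like the listed ones. Bases 21 to 50 from the annotated start site are printed, 5′ to 3′ on the strand of the gene, with each ATG in capitals.
Ifrd1, chr12:40223140-40223169, minus strand: tagagagaaacATGtatcgtttccgctcgc
Ddit3, chr10:127290813-127290842, plus strand: acacgtcgattatatcATGttgaagATGag
The motif searched was ATG on the transcribed strand alone, and 5 of the 11 windows (45.5%) held one in these 50 bases, against 44.3% of all 32851 RefSeq windows. The share was thus near that of all genes.

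In Ifrd1 the ATG began at base 32 of the RefSeq transcript, and the listed 52-codon ORF also began at base 32 of the authors' transcript. An ATG at base 32 was present in 1.18% of all windows. Over the whole list, 717 of 1413 ORFs (50.7%) that started in the first 48 bases of a listed transcript had an ATG at that base of a RefSeq window of the gene. The Ddit3 window held 2 ATG that were 9 bases apart and in the same frame, at bases 37 and 46, a spacing found in 0.868% of windows. Both windows were picked for these features, so the 1.18% and the 0.868% give no measure of chance. The listed Ddit3 ORFs began 9 bases apart as well, but at bases 265 and 274 of their transcript, and whether these are the same ATG was not tested. No in-frame stop codon followed the first ATG inside either window. Only 6 whole codons in Ifrd1 and 4 in Ddit3 fitted there, too few to show an open frame. The other windows with an ATG were those of Ppp1r15a at base 35, of Eif2ak3 at bases 16 and 23, and 1 of the 2 of Atf5 at base 41, while the first listed ORF of these genes began at base 180, 53 and 229 in that order. The windows of Atf4, Eif2ak1, Eif2ak2 and Eif2ak4 held none.

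The 3 stress-response transcription factors were listed with short ORFs alone. Atf4, the central activator of the response, had 1 ORF of 59 codons with a score of 952 at chromosome 15, 80086111 to 80086811 (mm9, counted from 1). It began at base 498 of a 1725-base transcript, crossed 1 exon junction and left 1048 bases after its stop. The ORF thus took 10.4% of the transcript, and its stop lay 140 bases before the last exon junction.

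Atf5, a related factor of the same family, had ORFs of 66 and 58 codons that ended at the same stop codon. They lay on chromosome 7, at 52070481 to 52071800 and 52070481 to 52071776 on the minus strand, in a 1816-base transcript. The inner start, 8 codons downstream, scored 919, against 600 for the outer start. After the common stop there were 1387 transcript bases, and the stop lay 122 bases before the last junction.

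Ddit3, which encodes the factor CHOP of the endoplasmic reticulum stress response, had ORFs of 34 and 31 codons with a common stop on chromosome 10, at 126727885 and 126727894 to 126730809. Here the order of scores was the other way round, with 893 for the outer start and 542 for the inner start, 3 codons downstream. The transcript had 1099 bases, of which 264 preceded the outer start and 730 followed the stop. The stop lay 164 bases before the last junction.

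The 2 phosphatase subunits differed in what was listed. Ppp1r15a (GADD34), the stress-induced subunit, had 1 ORF of 26 codons with a score of 953 at chromosome 7, 52781379 to 52781459 on the minus strand. It had 179 bases before it and 2072 after it, and its stop lay 1667 bases before the last junction. The ORF took 3.47% of its transcript.

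Ppp1r15b (CReP), the constitutive subunit, had 2 short ORFs and a long one on chromosome 1. The 697-codon ORF, at 135028324 to 135033464, scored 823. Ahead of it lay an 8-codon ORF at 135028045 to 135028071 with a score of 921 and a 51-codon ORF at 135028094 to 135028249 with a score of 990. In transcript order, 22 bases separated the stop of the 8-codon ORF from the start of the 51-codon ORF, and 74 bases separated the stop of the 51-codon ORF from the start of the long ORF. The 51-codon ORF was in another frame than the long ORF, while the 8-codon ORF was in the frame of the long ORF and stopped 252 bases before it. Both short ORFs were listed on a 6319-base transcript and the long ORF on an 8024-base transcript. Both transcripts held the long ORF's start.

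Ifrd1, a transcriptional regulator known from mammalian cells for an upstream ORF that affects the stability of its mRNA, had 1 short and 1 long ORF on chromosome 12. The 52-codon ORF, at 40949587 to 40949745 on the minus strand, scored 991, the highest score in the list, and 99.5% of ORFs under 100 codons scored lower. It stopped 43 bases before the start of the 449-codon ORF, which scored 965 and lay at 40929949 to 40949543. The short ORF was listed on a 4704-base transcript, which held the long ORF's start, and the long ORF on another transcript of 1816 bases. The frames differed by 1 base. Among upstream ORFs over the whole list whose transcript held the main start, the median distance was 115 bases, with quartiles of 46 and 258. The 43 bases of Ifrd1 were thus below the lower quartile. In Ppp1r15b the 74 bases of the 51-codon ORF lay between the lower quartile and the median. The 252 bases of its 8-codon ORF lay between the median and the upper quartile.

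**Figure D1:**
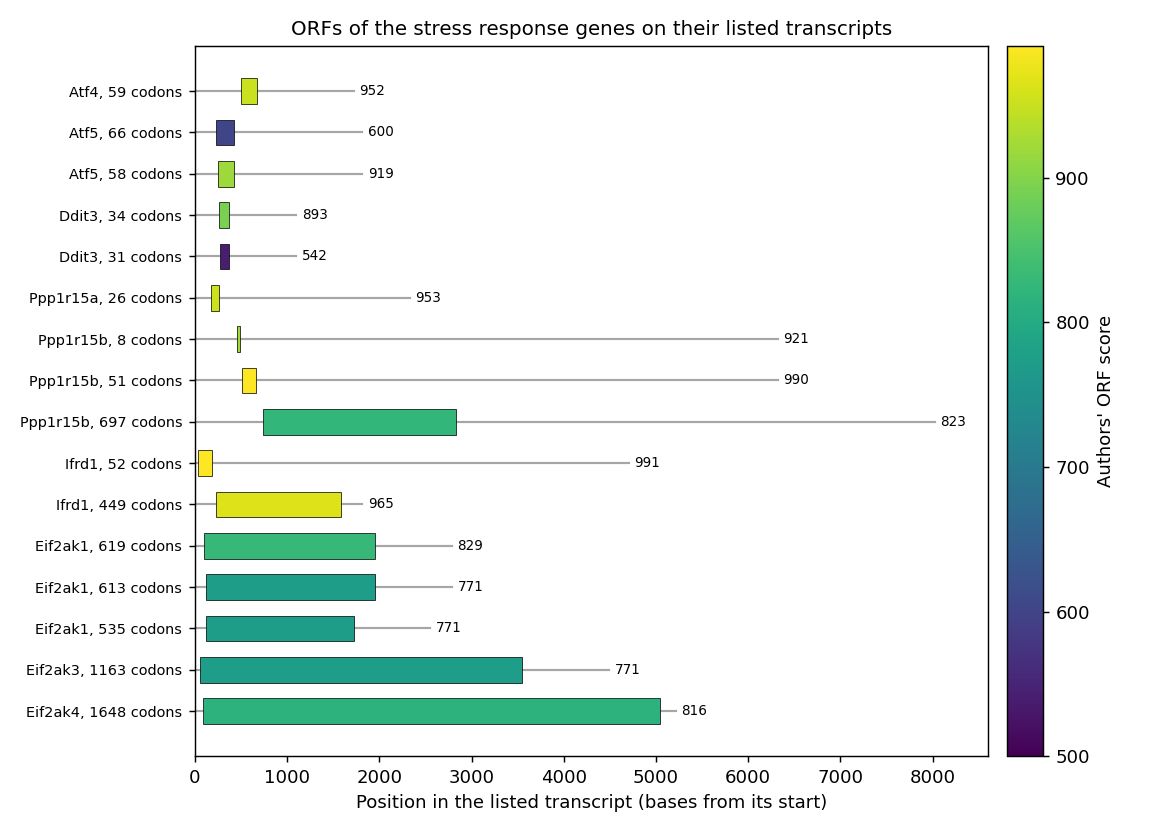
Each row is 1 listed ORF, with the gray line for its listed transcript (bases from the transcript start), the box for the ORF and the colour and the number at the right for the authors' score. Atf4, Atf5, Ddit3 and Ppp1r15a have short boxes only, which begin from 7.68% (Ppp1r15a) to 28.8% (Atf4) into the line. Ppp1r15b and Ifrd1 have short boxes ahead of a long one, and the 3 kinases have long boxes only.

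The eIF2 kinases had long ORFs and no listed short one. Eif2ak4, the sensor of uncharged tRNA, had 1 ORF of 1648 codons with a score of 816 at chromosome 2, 118214445 to 118300796. It filled 94.9% of its 5213-base transcript and crossed 38 junctions. Eif2ak3, the kinase of the endoplasmic reticulum membrane, had 1 ORF of 1163 codons with a score of 771 at chromosome 6, 70794573 to 70854282, which began 52 bases into its transcript.

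Eif2ak1, the heme-regulated kinase, had 3 ORFs that ended at chromosome 5, 144662758. The 619-codon ORF began at 144578760 and scored 829. ORFs of 613 and 535 codons both began 6 codons further in, at 144578778, and both scored 771. The transcript of the 535-codon ORF was 234 bases and 1 exon shorter, a difference of 78 codons with the frame kept. No line of the list carried Eif2ak2, the interferon-induced kinase that binds double-stranded RNA, or any of its 7 RefSeq synonyms, so this kinase was not analysed here. Absence of a name shows neither that the gene was silent nor that it was untranslated.

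Against the whole list, the 9 listed genes stood as follows. A family is the set of ORFs under 1 gene name on 1 chromosome and strand, and there were 10327. The longest ORF had under 100 codons in 4 of the 9 (Atf4, Atf5, Ddit3 and Ppp1r15a), against 4.74% of all families. The same 4 had 500 or more bases after that ORF's stop, against 3.08% of all families. These 4 were also the ones whose longest ORF stopped before the last exon junction, against 10.3% of all families and 37.4% of the 489 families with a longest ORF under 100 codons. In the other 5 genes the stop of the longest ORF lay in the last exon, 58 to 225 bases after the last junction. The genes were chosen with such ORFs known, so these counts describe them and support nothing further. The known protein of each of the 4 genes is longer than its longest listed ORF, and no longer ORF of these genes was listed with a score of 500 or more. Whether the short ORFs lie upstream of the known coding sequence was not tested, since no mm9 sequence was used here.

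**Figure D2:**
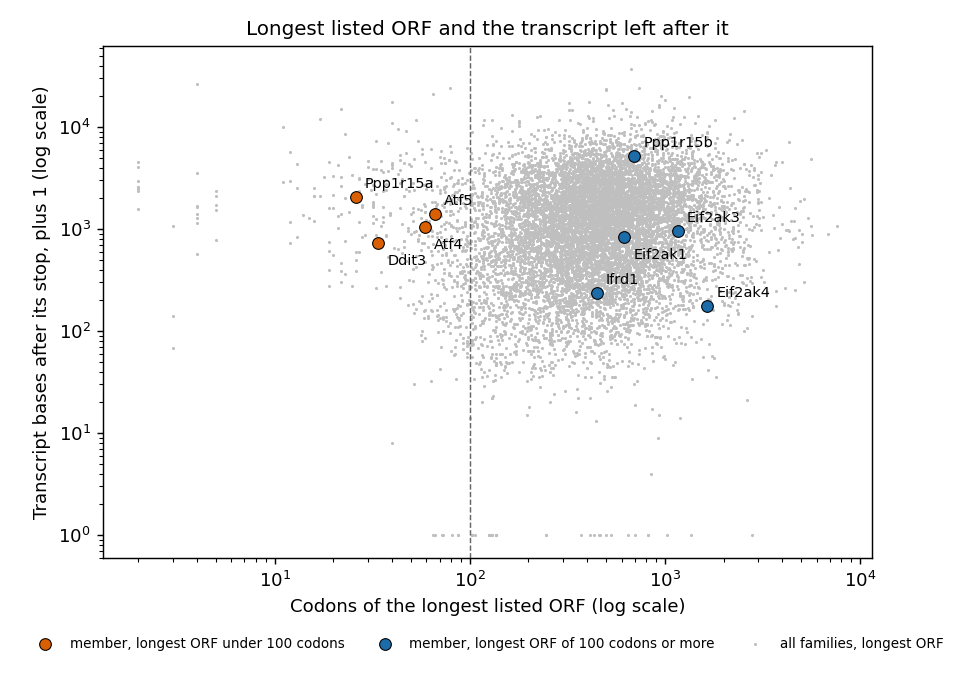
Each gray point is the longest listed ORF of 1 of 10327 families, with its codons on the x axis and the transcript bases after its stop, plus 1, on the y axis, both on log scales. The dashed line marks 100 codons: Atf4, Atf5, Ddit3 and Ppp1r15a (orange) lie left of it with 730 to 2072 bases after the stop, and the other 5 genes (blue) lie right of it with 174 to 5189.

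Upstream ORFs ahead of a longer listed ORF were found in 2 of the 9 genes (Ppp1r15b and Ifrd1), where ORFs that run over the longer ORF's start in another frame count too, against 20.2% of families. Atf4, Atf5, Ddit3 and Ppp1r15a do not enter this count, because their short ORF is itself the longest of the family. In both Ppp1r15b and Ifrd1 an upstream ORF outscored the long ORF, by 167 points for the 51-codon ORF of Ppp1r15b and by 26 for that of Ifrd1, and this held for 41.4% of the 2090 families with an upstream ORF. Another in-frame start was listed in 3 of the 9 genes (Atf5, Ddit3 and Eif2ak1), against 23.0% of families. The inner start scored higher than the outer one in 1 of these 3 pairs, that of Atf5, against 42.9% of 3681 such pairs in the list.

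The scores of the short ORFs ran from 542 to 991 with a median of 921 over 9 ORFs, beside a median of 749 over all 6045 ORFs under 100 codons. Of these 9, 6 scored 900 or more, against 21.6% of all ORFs under 100 codons. The exceptions were the 66-codon ORF of Atf5 and both ORFs of Ddit3. Short ORFs that were the longest of their family scored higher in the whole list too, with a median of 901 over 489. Those of Atf4, Atf5, Ddit3 and Ppp1r15a scored 952, 600, 893 and 953. The scores of the 7 longer ORFs ran from 771 to 965 with a median of 816, beside 893 over all 16322 ORFs of 100 codons or more, and 1 of the 7, that of Ifrd1, scored 900 or more, against 48.4%. Taken by gene, an ORF with a score of 900 or more was listed in 5 of the 9 genes (Atf4, Atf5, Ppp1r15a, Ppp1r15b and Ifrd1), against 65.5% of families. Nested starts with a common stop share footprints, so the 9 short ORFs come from 7 stop codons and are not independent values. The longer ORFs of Eif2ak1 also share a stop codon, so the 7 longer ORFs are not independent values either.

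**Figure D3:**
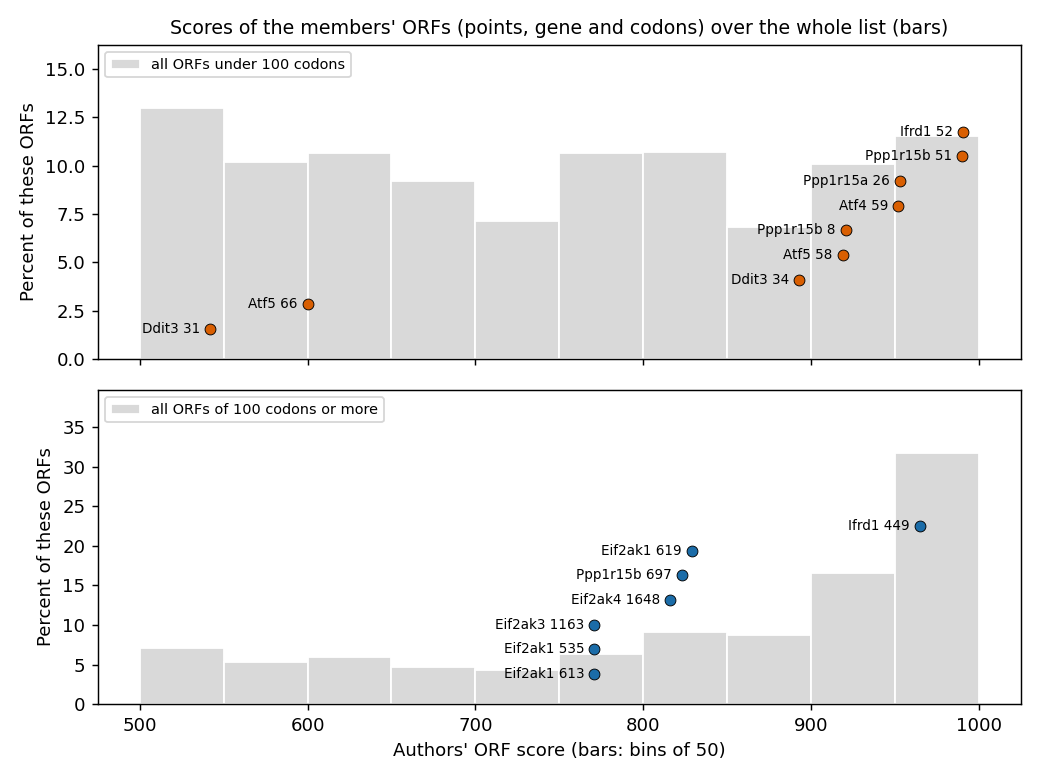
Points are the authors' scores of the 9 ORFs under 100 codons (upper panel) and the 7 longer ORFs (lower panel), named by gene and codons, with heights spread only for reading. Bars give the percent of all ORFs of that length class in score bins of 50: 6 of 9 short ORFs lie at 900 or more, and 1 of 7 longer ones does.

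Other genes of the pathway were counted from 3 lists of 52 genes together, of which 48 had a listed ORF. Of these 48, 5 (10.4%) had an upstream ORF, a lower share than the 20.2% of all families, with no test of the difference. All 15 genes of eIF2, its exchange factor eIF2B and start-codon recognition were listed, and 3 had an upstream ORF. Eif2d, a factor that can deliver the initiator tRNA, had a 17-codon ORF scored at 910, 52 bases before a 570-codon ORF that scored 952. Denr, which acts in reinitiation after short ORFs, carried a 20-codon ORF, scored at 654, whose stop came 1 base before a 198-codon ORF with a score of 991. Eif5, the GTPase-activating factor of eIF2, carried a 97-codon ORF of score 980 that ran 64 bases into its 429-codon ORF (score 958) in another frame.

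All 11 partners of the kinases and phosphatases were listed, and Impact, an inhibitor of GCN2 activation, was the 1 with upstream ORFs. Its 24- and 23-codon ORFs scored 541 and 767, ran 8 bases past the main start in another frame, and lay on transcripts with 16425 and 16428 bases before them, against 85 bases before its 318-codon ORF on its own transcript. Of 26 known targets of ATF4 or CHOP, 22 were listed, without Chac1, Vldlr, Stc2 and Fgf21. Slc7a11, the cystine transporter, carried a 35-codon ORF of score 823 that stopped 204 bases before a 502-codon ORF with a score of 987. Nupr1, a small stress-induced chromatin protein, was the 1 target whose longest ORF had under 100 codons, at 80 codons with a score of 977, and 347 bases followed it.

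Families with the same layout as Atf4 and its like, a longest ORF under 100 codons and 500 or more bases after it, numbered 314 besides these 4 genes, of which 190 are protein coding in RefSeq. The highest score of 991 was shared by 9 of the 314, of which the 5 with the most bases after the stop were Brk1, Ccl22, Tmem167, Serf2 and Cox7c, with 59 to 92 codons. Each is known for a small protein, and in Tmem167 and Serf2 the stop came before the last exon junction. Likeness here rests on ORF length, the bases after it and the score in 1 pooled list. An upstream ORF of 30 to 99 codons within 100 bases of the main start, as in Ifrd1 and Ppp1r15b, was listed in 233 other families. The 5 with the highest score of that ORF, ties settled by the score of the main ORF, were 2810407C02Rik, Samd9l, Cflar, St6galnac4 and Gcnt1. In Samd9l, an interferon-induced antiviral factor, the 38-codon ORF (score 990) ended 41 bases ahead of a 1579-codon ORF, and in Gcnt1, a glycosyltransferase, the 83-codon ORF (score 986) ended 1 base ahead of a 428-codon ORF.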

How the data were processed

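Ribosome footprints of 37 mouse dendritic cell libraries were placed in 28 groups from their labels. The deposited list pools all of them. Per the submitters' processing notes, Bowtie2, TopHat and mm9 were used, without roles or versions. No label or header names the ORF caller. Each score in that deposited table was assigned by the authors, and its scale is not stated. The other deposited columns are positions, read as BED with exon blocks.

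Transcript positions were computed from the exon blocks in Python 3.11.15, and the named length matched the coding bases of all 22367 ORFs. ORFs were classed against the longest ORF of their family (ties by score, then name), where upstream includes ORFs that run over its start in another frame. The class rules were tested on simulated data and placed 1800 of 1800 simulated ORFs. All simulated ORFs of a family lay on the same transcript, so ORFs on differing transcripts, splice variants and in-frame isoforms were not checked. The members and gene lists were chosen with earlier results of these data known. All members were named, then pathway genes with an upstream ORF or a longest ORF under 100 codons, and the 5 most alike families per pattern. That rule also asked for protein lengths, which were not used here. Alternatives were score and length minimums, 1 ORF per stop codon, the choice of the main ORF, and the definitions of upstream and short. RefSeq tables of GRCm38.p6 gave names and the printed windows, and no coordinates were converted.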

Additional observations from a re-analysis of the deposited data

How the results depend on the processing

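The count of listed genes was 8 or 9 under all alternatives except a score of 900 or more. That setting left 5 of 9 genes and 7 of 16 ORFs, beside 6713 of 10253 gene names and 9208 of 22367 ORFs in the whole list. With 30 or more codons Ppp1r15a was lost. Genes with an upstream ORF stayed at 2 under all alternatives except when main ORFs were picked by score, which gave 1. That gene was Ppp1r15b, through its 8-codon ORF ahead of the 51-codon one. Ppp1r15b counted in the same way with a score of 900 or more, which dropped its 697-codon ORF (score 823) and left 5 genes. The share of all families moved more, with 20.2% as reported, 14.6% with a score of 700 or more, 5.77% with 900 or more, 15.7% with 10 or more codons, 8.79% with 30 or more codons and 16.5% with main ORFs picked by score. Genes with only short ORFs were 3 or 4 under the score and length minimums and 1 ORF per stop codon, and 2 with a limit of 50 codons. With a score of 900 or more the 4 were not those reported, since Ddit3 was lost and Ppp1r15b kept its short ORFs alone. With main ORFs picked by score, 6 genes had a short main ORF. Of these, Ppp1r15b and Ifrd1 also had a long ORF listed. The share of all families with only short ORFs was 4.74% as reported, 10.2% with a score of 900 or more and 3.94% with 30 or more codons. With the limit of 50 codons it was 1.57%. A short main ORF picked by score was found in 13.2% of families, which includes families that also had a long ORF listed. The median score of 861 became 906 with a score of 700 or more, 953 with 900 or more, 829 with 10 or more codons, 826 with 30 or more codons and 907 with 1 ORF per stop codon, beside 847 over the whole list, which became 926, 962, 854, 871 and 868. The median length of 62.5 codons became 254 with a score of 700 or more and 257.5 with 30 or more codons, since the median fell between the short and the long ORFs. Over the whole list the median length was 326 codons, which became 363 and 402 under these settings. Alternatives on protein length were not run, because no protein table was used here. No paired analysis was possible because the list pools all libraries and no result comes from a test. The depth is unknown, so a gene or ORF missing from the list cannot be told from one with too few footprints.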
